A study of Drosophila melanogaster with 2 samples.

Results

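The Enhancer of split complex, E(spl), and its neighbour gro were examined for binding of a GFP-tagged Sox102F protein, measured by chromatin immunoprecipitation and sequencing (ChIP-seq). The 10 genes were taken by name from the annotation, out of 13945 protein-coding genes, and all 10 were found clustered on arm 3R. Kaz-m1, E(spl)m2-BFM and E(spl)m6-BFM lie among them and were not counted as members. Every deposited summit from 5 kb before the first gene body to 5 kb after the last was kept (dm6, chr3R:25992621-26054911, 62.3 kb), which gave 14 of the 7055 summits of the authors' optimal list. The flies were of the Sox102F-GFP strain, a transgenic Drosophila melanogaster line with GFP at the C terminus of Sox102F, and were collected as whole white prepupae, male and female pooled. The 2 samples, biological replicates 1 and 4, form 1 group. The labels name GFP as the antibody's target in one field and Sox102F in another, and they do not give the promoter or the cells that drive the tagged protein. Whole animals were used, so binding in few cells and weak binding in many cannot be told apart. No untagged line was analysed here, the design holds no contrast, and the results below are values and counts with no test.

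The E(spl) complex is a classic set of Notch targets in the fly. When Notch is activated, its intracellular part joins the DNA-binding protein Su(H) and switches the complex on. Its basic helix-loop-helix (bHLH) genes encode repressors that recruit the corepressor Groucho, the product of gro, and silence proneural genes, so that a cell next to a future neuron or sensory organ keeps its epidermal fate. The Bearded family (BFM) genes of the same complex encode small proteins that inhibit Neuralized, an enzyme needed for signalling by the ligand Delta. Sox102F is a SoxD-type protein, and proteins of the SOX family bind DNA at variants of the word ACAAT through an HMG domain.

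Sox102F-GFP summits were found upstream of 6 of the 10 genes and between genes of the complex. The strongest lay between E(spl)mbeta-HLH and E(spl)malpha-BFM, with a signal of 877.1, followed by one in an intron of gro with 755.0. Signals are the authors' own values per peak, on a scale that the sources used here do not give. They were used to rank and describe peaks within a list. The sequences of 6 summits are shown, the 4 strongest and those at E(spl)mdelta-HLH and E(spl)mbeta-HLH, each with the 50 bases to either side on the plus strand of the release 6 assembly. Capitals mark ACAAT on either strand, which reads ATTGT on the plus strand when the word is on the other.

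Between E(spl)mbeta-HLH and E(spl)malpha-BFM, chr3R:26009031-26009131: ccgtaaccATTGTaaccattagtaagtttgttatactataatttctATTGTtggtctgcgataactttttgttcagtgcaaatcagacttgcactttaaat

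Intron of gro, chr3R:26042449-26042549: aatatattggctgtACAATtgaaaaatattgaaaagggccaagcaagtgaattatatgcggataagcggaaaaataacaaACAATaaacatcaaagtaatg

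Intron of CG43116, before E(spl)mdelta-HLH, chr3R:25996529-25996629: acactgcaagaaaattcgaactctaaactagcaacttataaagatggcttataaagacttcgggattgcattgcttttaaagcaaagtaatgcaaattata

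Upstream of E(spl)m7-HLH, chr3R:26036644-26036744: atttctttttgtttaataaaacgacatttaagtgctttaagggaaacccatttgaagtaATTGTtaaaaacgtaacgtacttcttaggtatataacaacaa

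Upstream of E(spl)mdelta-HLH, chr3R:25997267-25997367: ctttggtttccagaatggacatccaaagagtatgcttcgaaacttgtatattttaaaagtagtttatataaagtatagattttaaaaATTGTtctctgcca

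Upstream of E(spl)mbeta-HLH, chr3R:26006238-26006338: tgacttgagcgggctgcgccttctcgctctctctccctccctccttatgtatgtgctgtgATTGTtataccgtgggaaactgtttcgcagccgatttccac

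The windows in gro and between E(spl)mbeta-HLH and E(spl)malpha-BFM each hold ACAAT in 2 places, and those of E(spl)m7-HLH, E(spl)mdelta-HLH and E(spl)mbeta-HLH in 1 place. The CG43116 window, the third strongest, holds none. The E(spl)mbeta-HLH window also holds the Su(H) word GTGGGAA, in lower case, a few bases after its ATTGT.

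**Figure D1:**
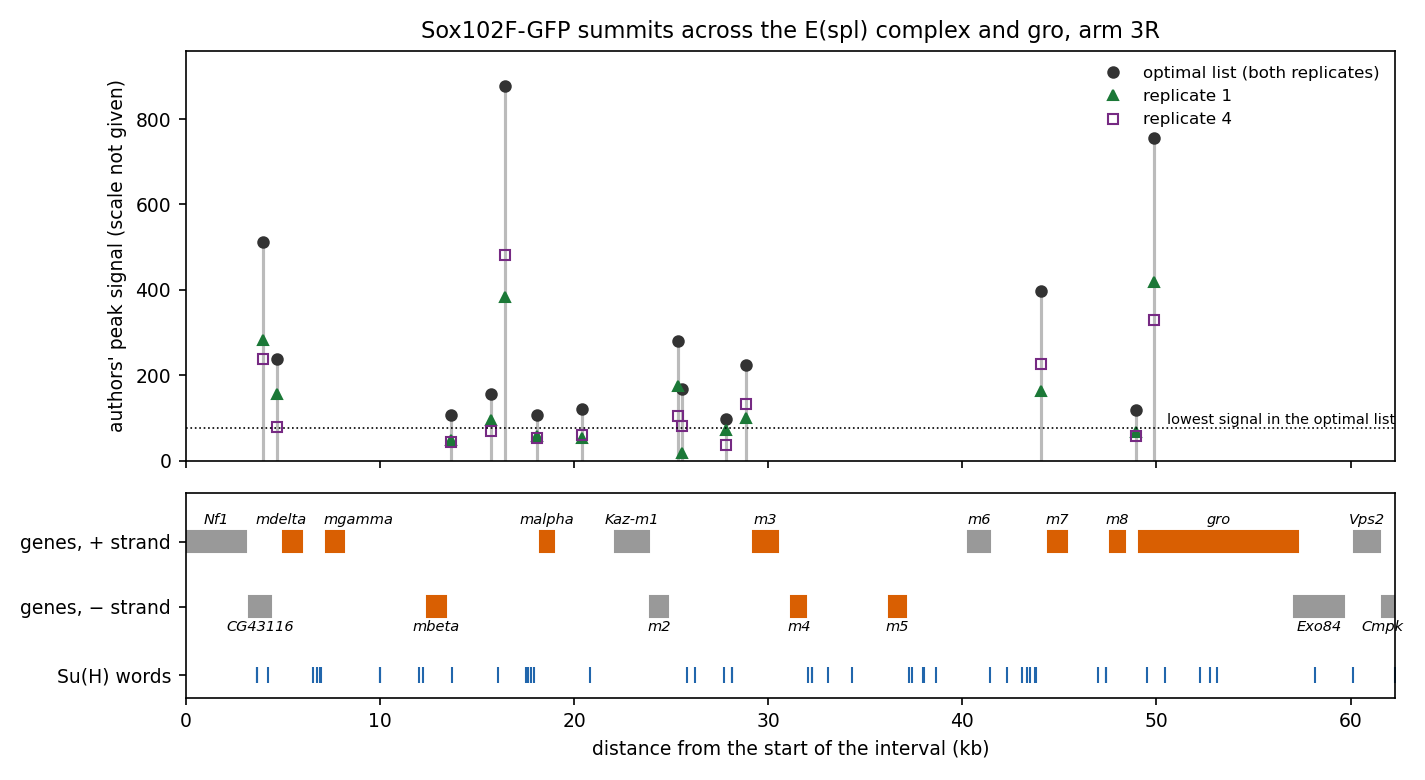
Signal of the 14 optimal summits across the complex, with position in kb from the start of the interval on the x axis and the authors' signal on the y axis, for the optimal list (circles, with lines to 0) and for the matching entry of replicate 1 (triangles) and replicate 4 (squares). The lower panel shows protein-coding genes by strand, members in orange and others in grey, with E(spl) and the family suffix left out of the names, and the positions of 52 Su(H) words. The summits at 16.5 kb and 49.9 kb stand highest, and none lies between 28.8 kb and 44.1 kb.

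A summit within 1 kb of an annotated start was found for 6 of the 10 members (60%), against 20.3% of all protein-coding genes. With the 7055 strongest entries of replicate 1 alone the count was 6 of 10, against 23.8% of all genes, and with those of replicate 4 alone it was 6 of 10, against 19.5%. Members lie close together and share surroundings, so they are not independent, and 9 of the 10 have 1 exon and 1 annotated start.

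Of the 7 bHLH repressor genes, 4 had a summit at the start. E(spl)m7-HLH (FBgn0002633, chr3R:26037038-26038019, plus strand) had the strongest, 344 bp upstream. Its signal was 396.8 in the optimal list, at rank 704 of 7055, 162.5 in replicate 1 and 225.6 in replicate 4. E(spl)mdelta-HLH (FBgn0002734, chr3R:25997621-25998633, plus strand) had a summit 304 bp upstream with 237.2 in the optimal list, at rank 1610, 155.7 in replicate 1 and 78.0 in replicate 4. These genes differed in which replicate was higher, replicate 4 for E(spl)m7-HLH and replicate 1 for E(spl)mdelta-HLH. A second summit near E(spl)mdelta-HLH, 1042 bp upstream and just beyond the distance counted, lay in an intron of CG43116, a gene on the opposite strand. It was the third strongest of the 14, with 512.3 in the optimal list (rank 435), 281.7 in replicate 1 and 237.3 in replicate 4.

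E(spl)m3-HLH (FBgn0002609, chr3R:26021823-26023127, plus strand) had a summit 353 bp upstream with 223.6 in the optimal list, 100.7 in replicate 1 and 131.7 in replicate 4. Another, 1382 bp upstream, was the weakest of the 14, with 98.4 in the optimal list, 71.0 in replicate 1 and 35.7 in replicate 4. E(spl)mbeta-HLH (FBgn0002733, chr3R:26005046-26006023, minus strand) had a summit 265 bp upstream with 107.1 in the optimal list, 48.4 in replicate 1 and 44.5 in replicate 4. This summit was at ranks 5908 and 6284 of the 30000 entries of replicates 1 and 4, among the 7055 strongest of each but low next to most other summits of the complex. Replicate 4 had a further entry 76 bp upstream of this start, with 61.4. A further optimal summit 2304 bp upstream of E(spl)mbeta-HLH had 155.9 in the optimal list, with 96.0 and 70.1 in replicates 1 and 4.

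E(spl)mgamma-HLH, E(spl)m5-HLH and E(spl)m8-HLH had no optimal summit within 1 kb. For E(spl)mgamma-HLH (FBgn0002735, chr3R:25999851-26000761) the nearest optimal summit was the one at E(spl)mdelta-HLH, 2534 bp away. None of the deposited dm6 lists, of 30000 entries each for the replicates and for both pooled, had an entry within 1 kb of its start. At E(spl)m8-HLH (FBgn0000591, chr3R:26040240-26041008) the pooled list had a weak entry, with 29.8 at rank 17893, against 76.7 for the lowest signal in the optimal list. Replicate 1 had a matching entry with 16.3, and the strongest entry of replicate 4 near this start, with 15.5, was a different one more than 100 bp away. For E(spl)m5-HLH (FBgn0002631, chr3R:26028854-26029735) the pooled list and replicate 4 had no entry, and replicate 1 had one with 10.2 at rank 27826. The nearest optimal summit to E(spl)m5-HLH lay 6959 bp away.

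Of the 2 Bearded family members, E(spl)malpha-BFM had a summit at its start and E(spl)m4-BFM did not. The E(spl)malpha-BFM (FBgn0002732, chr3R:26010893-26011568, plus strand) summit lay 168 bp upstream, with 107.9 in the optimal list, 57.3 in replicate 1 and 53.9 in replicate 4. The strongest summit of the complex, at rank 124 of 7055, also had the E(spl)malpha-BFM start as its nearest, 1812 bp downstream of it, and the E(spl)mbeta-HLH start lay 3058 bp away on the other side. Its signal was 382.6 in replicate 1 and 482.6 in replicate 4. Both of these starts point away from the region between them, which spans 4870 bp and holds 4 optimal summits. E(spl)m4-BFM (FBgn0002629, chr3R:26023821-26024579, minus strand) had no entry within 1 kb in the pooled list or in replicate 1, and 14.5 at rank 21969 in replicate 4.

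The corepressor gene gro (FBgn0001139, chr3R:26041736-26049911, plus strand) had 2 summits at its starts, of which it has 4. The stronger lay in an intron, 763 bp after the first start and 142 bp before the next start downstream of it, with 755.0 in the optimal list at rank 176. It had 418.3 in replicate 1 and 328.4 in replicate 4, at ranks 141 and 263 of 30000. The other lay between genes, 192 bp before the first start of gro and 536 bp after the end of E(spl)m8-HLH, with 119.5 in the optimal list, 66.5 in replicate 1 and 58.3 in replicate 4. Both gro summits had the higher value in replicate 1, and whether the lists share a scale is not given.

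**Figure D2:**
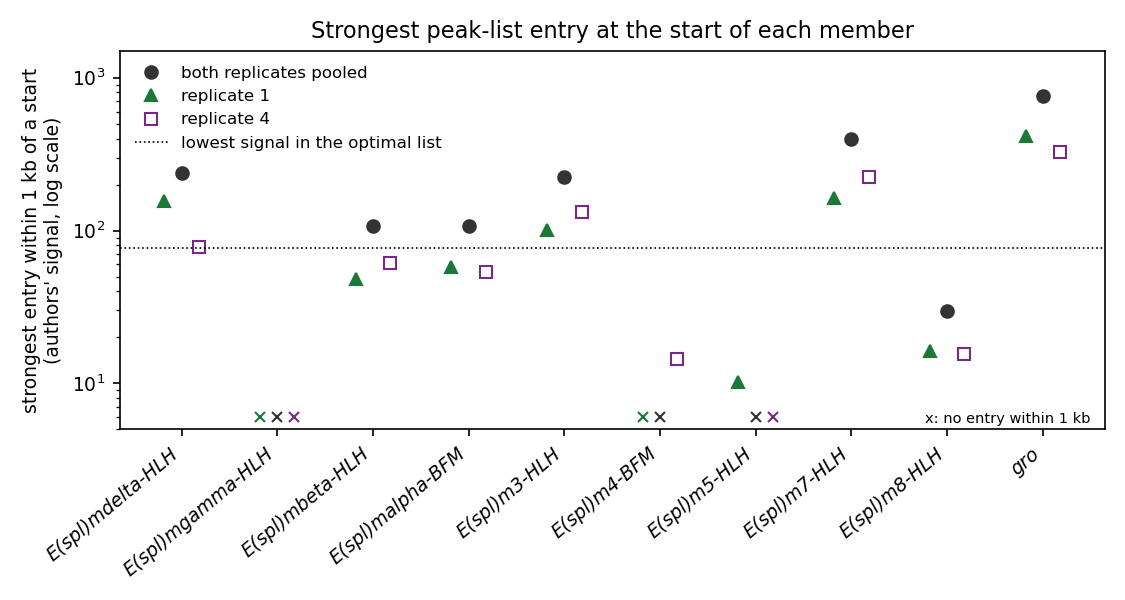
Strongest deposited entry within 1 kb of a start of each member, in order along the arm, on a log axis of the authors' signal, for both replicates pooled (circles), replicate 1 (triangles) and replicate 4 (squares), with crosses where a list has no entry. The dotted line is the lowest signal in the optimal list, 76.7, which applies to the pooled values. E(spl)mgamma-HLH, E(spl)m4-BFM and E(spl)m5-HLH have no pooled entry, and E(spl)m8-HLH lies below the line.

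Of the 14 summits, 10 had a member as the nearest protein-coding start. The other 4 were nearest to CG43116 (1 summit), to E(spl)m2-BFM (2 summits) and to Kaz-m1 (1 summit), all 3 inside or beside the complex. With starts of all biotypes, 8 of the 14 had a member as the nearest. The summits 2304 bp upstream of E(spl)mbeta-HLH and 1382 bp upstream of E(spl)m3-HLH were then nearest to non-coding starts, 1254 and 635 bp away. E(spl)m2-BFM, another Bearded family gene, had summits 501 and 700 bp upstream, 199 bp apart in overlapping peaks. The first had 279.9 in the optimal list, 175.2 in replicate 1 and 104.7 in replicate 4, and the second 168.6, 18.7 and 80.4 in the same order. The second was thus weak in replicate 1 alone, at rank 15888 of 30000. Kaz-m1, the gene long known as m1, encodes a protein of the Kazal protease inhibitor type and had a summit 1673 bp upstream with 121.8 in the optimal list. Intergenic sequence held 11 of the 14 summits, introns 2 and an exon of a non-coding transcript 1, so no summit lay in coding sequence. Their median distance to the nearest protein-coding start was 385 bp, against 1633 bp over all optimal summits. A distance of at most 500 bp was found for 8 of 14 (57.1%), against 33.4% of all optimal summits. Of the 14, 13 lay upstream of their nearest protein-coding start. For the locations and the upstream count, no share over all optimal summits is given here. Genes lie close together in the interval, and the part of this spacing in the distances and locations was not tested.

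Between the summits of E(spl)m3-HLH and E(spl)m7-HLH was a stretch of 15.2 kb (chr3R:26021470-26036694) with no optimal summit. It holds the bodies of E(spl)m3-HLH, E(spl)m4-BFM, E(spl)m5-HLH and E(spl)m6-BFM. The pooled list had 6 entries there, the strongest with 52.2 at rank 10470. Over the 6 arms, 27.1% of the 7049 gaps between neighbouring optimal summits were at least as long, and the median gap was 4956 bp. Within the complex the median of 13 gaps was 2039 bp.

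Summits were dense across the complex as a whole. The interval held 22.5 per 100 kb, against 5.06 per 100 kb on 3R and 5.27 per 100 kb over the arms 2L, 2R, 3L, 3R, 4 and X. Of 2145 adjacent windows of the same length tiled along these arms, 34 (1.59%) held at least 14 summits, the median window held 2, and the fullest held 25. The summed signal of the interval was 4161, a value reached by 15 of these windows (0.699%), with a median of 371.1. No optimal summit lay in 640 of the 2145 windows, among them long runs near the starts of 2R and 3R. Such stretches are part of the densities of the arms and of these shares. The median signal of the 14 summits was 196.1, against 135.4 over all optimal summits, and 9 of the 14 were above the latter.

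**Figure D3:**
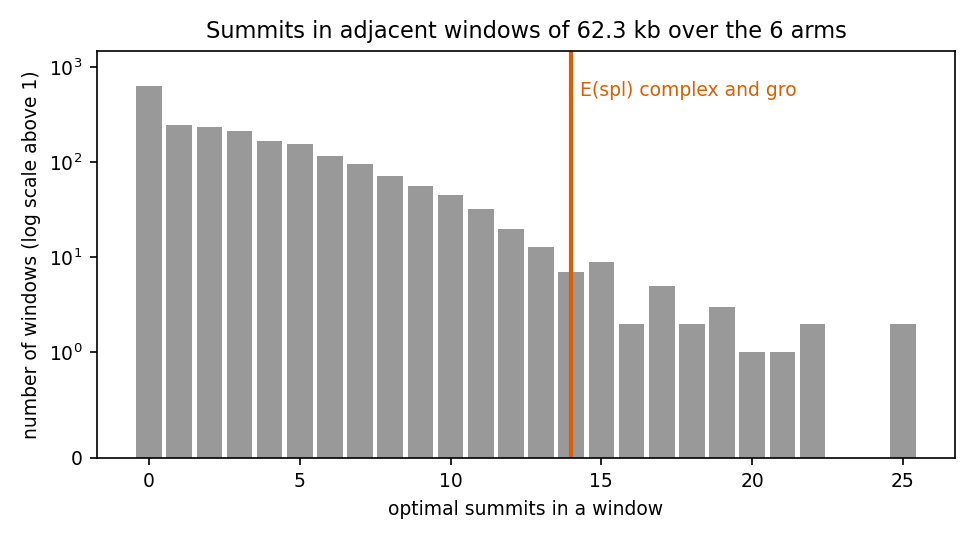
Number of optimal summits in each of 2145 adjacent windows of 62.3 kb along the 6 arms, with the number of windows on the y axis, on a log scale above 1. The orange line marks the 14 summits of the E(spl) complex and gro, and 34 windows hold at least as many.

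Both replicates had an entry within 100 bp of each of the 14 summits, whereas 91.5% of all optimal summits had one in both. Among the 7055 strongest entries of a replicate were 13 of the 14 for replicate 1 and 13 of the 14 for replicate 4, with 12 in both. Replicate 1 lacked the second E(spl)m2-BFM summit, and replicate 4 lacked the E(spl)m3-HLH summit 1382 bp upstream. Signals in the 2 replicates had a Spearman correlation of 0.789 over the 14 summits and 0.896 over 13, without the second E(spl)m2-BFM summit. All were picked from a list made from both libraries, so this describes them and is no independent check. Over all 6458 optimal summits found in both lists it was 0.730.

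The ratio of replicate 4 to replicate 1 signal had a median of 0.898 over the 14 summits and 1.03 over all optimal summits in both lists. It was below 1 at 9 of the 14 summits. Whether the lists share a scale is not given in the sources used here, so each ratio was placed among those of all optimal summits. The second E(spl)m2-BFM summit had a ratio of 4.30, above 99.5% of all, and the other 13 lay between the 5th and 95th percentiles, 0.489 and 2.01. At the low end were E(spl)mdelta-HLH with 0.501 and the weaker E(spl)m3-HLH summit with 0.502. At E(spl)m7-HLH the ratio was 1.39, and at the intron of gro it was 0.785.

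Replicate 4 had 17 of its strongest entries in the interval and replicate 1 had 13. All 13 of replicate 1 were within 100 bp of an optimal summit. In replicate 4, 4 were not: a pair between E(spl)mgamma-HLH and E(spl)mbeta-HLH with 44.9 and 40.6, the entry 76 bp upstream of E(spl)mbeta-HLH with 61.4, and one 773 bp downstream of the E(spl)malpha-BFM start with 44.9. The entries with 44.9 and 40.6 are weak, since the lowest of the 7055 strongest in replicate 4 had 40.4. The entry with 61.4 was at rank 4196 in replicate 4. It was above the 44.5 that replicate 4 had at the optimal summit upstream of E(spl)mbeta-HLH.

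**Figure D4:**
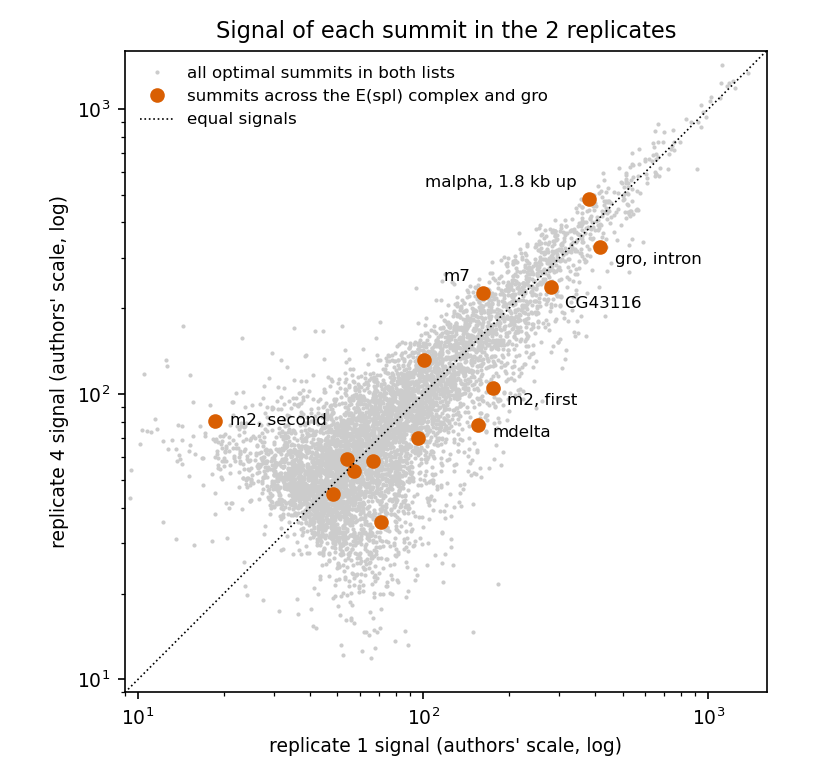
Replicate 4 signal against replicate 1 signal, both on log axes in the authors' units, for the 14 summits across the complex (orange) and for all 6458 optimal summits found in both lists (grey), with a dotted line of equal signals. The second E(spl)m2-BFM summit stands apart at a replicate 1 signal of 18.7, and the other 13 lie within the grey cloud.

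Several words were searched within 50 bp of each summit, on both strands: ACAAT and ACAATG for SOX proteins, the first being part of the second, GTGGGAA or GTGAGAA for Su(H), CANNTG for bHLH activators (the E-box), CACNAG for E(spl) bHLH repressors (the N-box), and GAGAG for GAGA factor. ACAAT was in 6 of the 14 windows (42.9%), against 29.0% of all optimal summits. In windows of the same size 500 bp to the lower and higher side it was in 4 and 5 of 14, and over all optimal summits in 25.1 and 24.8%. With 14 windows such counts are small. ACAATG was in 2 of 14, against 5.90% of all. In the windows to the lower and higher side it was in 0 and 2 of 14, and over all optimal summits in 6.11 and 5.94%. The E-box was in 3 of 14 (21.4%), against 34.8%, GAGAG in 1 of 14 (7.14%), against 14.2%, and the N-box in 0 of 14, against 9.14%. The windows had a median AT content of 69.3%, against 66.3% for all optimal summits, and their flanks 500 bp away had 50%, against 56.4%. ACAAT is an AT-rich word, and the part of base composition in its counts was not tested.

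Su(H) words were frequent in the complex, at 8.35 per 10 kb (52 in all), against 2.27 per 10 kb over the arms. Of the 52, 1 was within 50 bp of an optimal summit, the one 289 bp upstream of E(spl)mbeta-HLH shown above, and 17 were within 500 bp. A Su(H) word was thus in 1 of the 14 summit windows (7.14%), against 2.01% of all optimal summits, and in 2 and 1 of the 14 windows 500 bp to the lower and higher side. In the window from 250 bp before to 50 bp after the gene's first start, a Su(H) word was found for 3 of the 10 members, E(spl)m4-BFM, E(spl)m5-HLH and E(spl)m8-HLH, against 6.49% of all protein-coding genes. None of these 3 had an optimal summit within 1 kb. Just outside the 250 bp, Su(H) words lay 289 bp upstream of E(spl)mbeta-HLH and 337 bp upstream of E(spl)malpha-BFM, which had a summit. Others lay 266 and 290 bp upstream of E(spl)mgamma-HLH, which had none. ACAAT was in 4 of the 10 windows, against 61.3% of all, and those 4 were of E(spl)mdelta-HLH, E(spl)mgamma-HLH, E(spl)m5-HLH and E(spl)m8-HLH.

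At 6 places in the interval, 2 Su(H) words stood on opposite strands with starts 24 bp apart, a layout known from E(spl) genes as the paired Su(H) site. This spacing was read from these words after they had been found, so its counts are a description. Over all 6 arms it occurred 9 times. The pairs lay nearest to the starts of E(spl)mgamma-HLH (2 pairs), E(spl)m3-HLH, E(spl)m4-BFM, E(spl)m7-HLH and E(spl)m8-HLH. An optimal summit lay within 500 bp of 2 of the 6, 309 bp from the pair at E(spl)m7-HLH and 326 bp from that at E(spl)m3-HLH. At the pairs upstream of E(spl)mgamma-HLH, E(spl)m4-BFM and E(spl)m8-HLH the nearest optimal summits lay 2256, 3404 and 1512 bp away. The other pair, 2778 bp downstream of the E(spl)mgamma-HLH start, was 3659 bp from one. The strongest pooled entry within 1 kb had 69.5 at this pair and 29.8 at the E(spl)m8-HLH pair. The pairs upstream of E(spl)mgamma-HLH and E(spl)m4-BFM had no pooled entry that near. The E(spl)m8-HLH promoter (chr3R:26039990-26040289, plus strand, 250 bases before the start and 50 from it) is shown with its pair of Su(H) words in capitals, as a start that has such a pair and ACAAT but no optimal summit within 1 kb.

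E(spl)m8-HLH: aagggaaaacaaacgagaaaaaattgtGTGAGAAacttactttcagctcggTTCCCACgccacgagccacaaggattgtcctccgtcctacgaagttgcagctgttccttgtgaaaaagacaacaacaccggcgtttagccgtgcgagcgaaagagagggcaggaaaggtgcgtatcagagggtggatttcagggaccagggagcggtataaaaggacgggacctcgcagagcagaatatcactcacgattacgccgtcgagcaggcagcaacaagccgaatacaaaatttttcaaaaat

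The pathway around the complex was described by 4 further gene lists. Of 18 genes for the Notch receptor and core components, 10 (55.6%) carried an optimal summit no more than 1 kb from a start, against 20.3% of all protein-coding genes. With the strongest entries of replicate 1 the count was 12, against 23.8% of all genes, and with those of replicate 4 it was 11, against 19.5%. The strongest were at fng, which encodes a glycosyltransferase that modifies Notch (466.3 in the optimal list, 231.9 and 253.3 in replicates 1 and 4), aph-1, a gamma-secretase subunit (425.3, 145.3 and 206.3), and numb, a Notch inhibitor (376.0, 214.8 and 165.8). Delta, Su(H) and H, the gene of the Su(H) antagonist Hairless, had none. These values are below that of the gro intron and on either side of that of E(spl)m7-HLH.

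Other HES-type bHLH genes, relatives of the E(spl) repressors, had a summit in 2 of 6 (33.3%, against the same 20.3% of all protein-coding genes), hry (157.3, replicates 97.8 and 62.3), the gene also called hairy, and Sidpn, with 93.5 in the optimal list, 66.2 in replicate 4 and no matching entry in replicate 1. Of 7 genes of the Bearded complex and the rest of the E(spl) locus, 3 (42.9%) had one, E(spl)m2-BFM, Brd (118.8, replicates 72.3 and 43.2) and Tom (115.0, replicates 53.1 and 70.3). Of 9 proneural and partner genes, 2 (22.2%) had one, emc (217.2, replicates 106.6 and 113.1) and da (79.1, replicates 49.7 and 37.6). That share is near the 20.3% of all genes, and the other lists of this paragraph are small. In the strongest entries of replicates 1 and 4 the counts were 2 and 3 of the 6 HES-type genes. They were 3 and 3 of the 7 Bearded and E(spl) locus genes, and 2 and 1 of the 9 proneural genes. The matching shares over all genes were 23.8% for replicate 1 and 19.5% for replicate 4.

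2 other gene clusters of lateral inhibition were measured in the same way, from 5 kb before to 5 kb after, and were chosen after the values of the lists had been seen. The Bearded complex (chr3L:14940499-14981040), with Brd, Tom, Ocho and BobA, held 4 optimal summits, or 9.87 per 100 kb, with signals from 84.0 to 137.4. The achaete-scute complex (chrX:365031-468176), with the proneural genes ac, sc, l(1)sc and ase, held 8, or 7.76 per 100 kb, with signals from 98.8 to 280.2. None of those 8 was within 1 kb of a start of the 4 proneural genes. Of all protein-coding genes, 20.3% had an optimal summit that near, and with 4 genes such a count is small. The densities, against 22.5 per 100 kb at the E(spl) complex and gro, are from 1 optimal list, and their difference was not tested.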

How the data were processed

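The data are peak lists from 2 ChIP-seq samples. According to the deposited text records, the authors derived the lists of replicate 1, of replicate 4 and of both pooled from aligned reads and a file that also went into control-normalized tracks, and combined these 3 into the optimal one. Not given in the sources used here: aligner, peak caller, IDR (irreproducible discovery rate) threshold and depth. The signal per peak is the authors' deposited value. The deposited lists also hold a −log10 q-value, which was not used, and the summit's offset from the peak start. Lists on dm3 were not used.

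Summits were placed on dm6 with Python 3.11.15, counted from 1, with the Ensembl release 115 annotation (BDGP6.54, dm6 coordinates) and the RefSeq release 6 sequence, whose arm lengths hold all peaks. A replicate's signal is that of its nearest summit within 100 bp. Windows were tiled from the first base of each arm. Of 40 symbols in the pathway lists, 35 matched the annotation and 5 matched through RefSeq synonyms. Hey stands in both the Notch and the HES-type list and was counted in each. Functions were tested on simulated data. Genes named are the members, the nearest starts of the 14 summits and the 3 strongest per list, and any others were named after their values were seen. The members, lists and tests were chosen with earlier results of these data known. Alternatives are the 3527 strongest optimal peaks, each replicate alone, other flanks, start windows, sharing distances and word windows.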

Additional observations from a re-analysis of the deposited data

How the results depend on the processing

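The number of members with a summit at a start was 6 in the optimal list and 6 with either replicate left out. It was 4 in the 3527 strongest peaks, 6 within 500 bp of a start and 7 within 2 kb. No share of all protein-coding genes is given here for the 3527 strongest peaks, 500 bp or 2 kb. Gene counts at these settings thus lack that comparison. In the 3527 strongest peaks the interval held 9 summits (14.4 per 100 kb), all 9 shared by the replicates, with a median signal of 279.9, 6 with a member as nearest start, and 10 pathway genes in place of 17 had a summit. These changes follow from a shorter list. With a replicate left out, the density ranged from 20.9 to 27.3 per 100 kb, the number of summits from 13 to 17, and the median signal from 70.1 to 100.7, on the scale of single libraries. The median signal was 162.3 with no flank and 223.6 with 10 kb flanks. Of all recomputed values, including those above, 36 stayed close to those reported and 11 moved further. Close meant counts within 1.5 times and the ratio of replicates within its spread over the summits. For the density it meant within 1 SD between the replicates of the value reported (20.7 with 10 kb flanks and 22.9 with none). No paired analysis was possible because there is 1 group and no contrast. Depth is unknown, so weak entries cannot be told from background, and a start without an optimal summit is one where none passed the authors' threshold.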

Other observations

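Of the windows that do not touch the interval, the 3 most like it by number of summits and then by summed signal each held 14 optimal summits. They are named by the gene with the strongest summit at a start. The window of vri (chr2L:5232445-5294735), which encodes a bZIP repressor of the circadian clock, had a summed signal of 4133, against 4161 for the E(spl) complex and gro. Those of MED30 and Rev1 (chr3L:622911-685201), a Mediator subunit gene and a translesion DNA polymerase gene whose starts share 1 summit, and cnc (chr3R:23172253-23234543), which encodes a bZIP factor of the stress response, had 3298 and 2793. The strongest summit at a start had 254.0 at vri, 565.2 at MED30 and Rev1 and 473.0 at cnc, against 755.0 at gro. A summit at a start was found for 2 of the 7 protein-coding genes of the vri window, 4 of 6 in the MED30 and Rev1 window and 3 of 4 in the cnc window, against 20.3% of all protein-coding genes.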
